A study of Caenorhabditis elegans with 2 samples.

Results

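The nuclear hormone receptor genes of the nematode Caenorhabditis elegans were taken as the protein-coding genes of Ensembl release 115 whose symbols begin with nhr- and a number. There were 269 of them among 19973 protein-coding genes. They were examined in chromatin immunoprecipitation sequencing (ChIP-seq) of ATTF-3, whose name refers to the AT-hook, a short motif that contacts the minor groove of DNA at runs of A and T. The worms, strain RW12296, carried TY1, EGFP and 3xFLAG tags inserted by CRISPR at attf-3 on chromosome III, and an antibody against GFP was used on whole young adults aged 63 hours, synchronised as starved L1 larvae after bleaching. The labels give 1 group with 2 biological replicates from separate biosamples of this one strain. Since no untagged or untreated group was in the samples, members are set beside all protein-coding genes, which include the members, and no test between groups was made.

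Nuclear hormone receptors are transcription factors with a zinc finger DNA-binding domain and a ligand-binding domain, and several respond to sterols, fatty acids or other small lipids. Nematodes have an unusually large family, most of it expanded from an ancestor related to the vertebrate receptor HNF4. A smaller set has clear counterparts in insects and vertebrates. Worm receptors of known function act in moulting, larval timing, fat metabolism and responses to diet and foreign compounds. Many worm transcripts are trans-spliced, so an annotated 5' end can lie downstream of the place where transcription starts.

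A gene was called bound when the summit of a peak lay within 500 bp of its 5' end. The main list, called the joint list here, was the series-level conservative list of 1737 peaks kept at an irreproducible discovery rate (IDR, which falls as a peak is ranked alike in repeated rankings) of at most 0.01. The replicates' own lists at that threshold held 964 peaks for replicate 1 and 1063 for replicate 2. Longer ranked lists, which also keep weak peaks, held 71287 peaks for both replicates together, 43427 for replicate 1 and 37734 for replicate 2. Signal values are the authors' own, on a scale that is not stated, and are compared only within a list or set side by side. The lists hold no read counts, so depth is unknown, and intervals are 95% Wilson intervals that cover counting error over genes only. Coordinates are on ce11 (WBcel235), counted from 1, and negative distances are upstream of a 5' end.

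Few nuclear hormone receptor genes carried a strong site. In the joint list 3 of 269 were bound, at nhr-47, nhr-25 and nhr-236 (1.12%, 0.38 to 3.23%), beside 6.07% of all protein-coding genes (1212 of 19973, 5.75 to 6.41%). A further 2 had a summit inside the gene but away from its 5' ends, nhr-19 and nhr-66, and nhr-41 had one at an internal 5' end. The DNA at these 6 places is shown so that their base composition can be compared. Each line gives 101 bases from the RefSeq copy of WBcel235, on the strand of the gene and 5' to 3', centred on the joint-list summit except at nhr-47, where the 101 bases just before the annotated 5' end are given. Capitals mark runs of 6 or more A or T bases.
nhr-47, chrV:5505152-5505252, plus strand: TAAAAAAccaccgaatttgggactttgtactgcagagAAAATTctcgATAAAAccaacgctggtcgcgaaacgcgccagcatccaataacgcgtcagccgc
nhr-25, chrX:13008199-13008299, plus strand: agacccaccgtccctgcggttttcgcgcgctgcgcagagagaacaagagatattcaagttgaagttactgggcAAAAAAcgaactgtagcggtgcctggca
nhr-236, chrIV:2330063-2330163, minus strand: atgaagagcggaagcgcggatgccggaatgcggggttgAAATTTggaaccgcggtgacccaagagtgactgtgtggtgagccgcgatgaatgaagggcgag
nhr-66, chrIV:8233542-8233642, minus strand: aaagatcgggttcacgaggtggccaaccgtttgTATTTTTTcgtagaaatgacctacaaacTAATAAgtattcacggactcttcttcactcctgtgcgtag
nhr-41, chrIV:1388067-1388167, plus strand: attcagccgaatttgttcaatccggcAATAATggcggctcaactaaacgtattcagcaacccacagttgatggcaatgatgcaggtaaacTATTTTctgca
nhr-19, chrII:9603625-9603725, minus strand: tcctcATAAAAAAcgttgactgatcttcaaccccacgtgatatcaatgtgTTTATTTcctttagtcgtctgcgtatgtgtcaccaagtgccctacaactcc

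The 3 promoter summits were low in A and T. The nhr-47 line above, which ends before the 5' end, was 51.5% A or T, while the 101 bases centred on its summit, not printed, were 39.6%. The lines centred on the summit were 46.5% at nhr-25 and 41.6% at nhr-236, and those at nhr-66, nhr-41 and nhr-19 were each 57.4%. All 1737 joint summits averaged 53.5% ± 8.76 (SD over summits), so the promoter summits were below that mean and the 3 sites inside genes above it. The stretch of 101 bases centred 150 bp upstream of the 5' end averaged 66.2% ± 8.14 over the 269 receptor genes and 65.8% ± 8.33 over all protein-coding genes (SD over genes). The receptor and general means differed by far less than the SD over genes. A run of 6 or more A or T bases occurred in 92.6% of these receptor windows, in 93.2% of those of all genes and in 71.8% of the windows at joint summits. In the lines above the longest run had 8 bases, at nhr-66 and nhr-19. A run of this kind is a description of the letters and not a site.

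The nhr-47 site was the strongest of the family in every list. Its joint signal was 248.75, which ranked 372 of 1737, and its signal was 110.46 in replicate 1 and 140.85 in replicate 2. Both replicates thus placed it well above their other receptor peaks. The gene, WBGene00003637, lies on chromosome V from 5505253 to 5509956 on the plus strand, and the peak covered 5505095 to 5505414 with its summit at 5505255, 2 bp into the annotated 5' UTR. In the replicates' own lists the summit lay at -10 bp in replicate 1 and 11 bp in replicate 2. The same summit was at -398 bp from the 5' end of dnj-19, which encodes a DnaJ co-chaperone and is the other gene with a 5' end within 500 bp. The peak does not tell which of the pair it belongs to, although it lay closer to nhr-47.

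In its own thresholded list replicate 1 bound 1 of 269 members, nhr-47 (0.372%), beside 4.03% of all protein-coding genes. Replicate 2 bound 2, nhr-47 and nhr-49 (0.743%), beside 4.4%. On chromosome V each replicate bound 1 of 167 members, beside 2.98% of all V genes in replicate 1 and 3.04% in replicate 2. Off V replicate 1 bound 0 of 102, which allows a share of up to 2.94%, beside 4.38% of all genes off V, and replicate 2 bound 1 of 102 (0.98%), beside 4.85%. Both replicates thus bound fewer members than the joint list, as they did genes in general.

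The remaining pair of bound receptors had weaker sites that passed the threshold in the joint list and in neither replicate's own list. At nhr-25, the worm counterpart of the FTZ-F1 and SF-1 receptors that acts in moulting and epidermal and gonad development, the joint signal was 94.9, rank 1304 of 1737. The replicates' ranked lists had signals of 43.31 in replicate 1 and 48.68 in replicate 2 there. The gene is on chromosome X from 13008493 to 13013964, the peak covered 13008089 to 13008408, and its summit at 13008249 was -244 bp from the 5' end. At nhr-236 the joint signal was 94.21, rank 1316, with ranked signals of 43.88 in replicate 1 and 53.39 in replicate 2. That gene is on chromosome IV from 2327126 to 2329640 on the minus strand, with the summit at 2330113, -473 bp from the 5' end and so close to the limit of 500 bp. Both summits lay outside protein-coding genes, and neither had another protein-coding 5' end within 500 bp. The 3 bound receptors had a median joint signal of 94.9, beside 155 over the 1212 bound genes (quartiles 111 and 352).

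**Figure D1:**
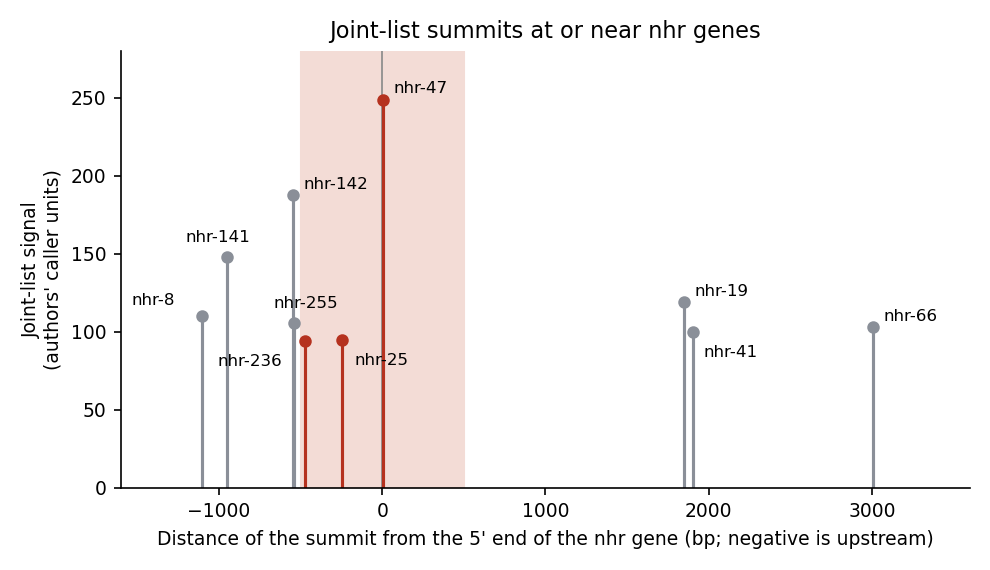
Each stem is a joint-list peak at or near an nhr gene, placed by the distance of its summit from that gene's 5' end (bp, negative is upstream), with its signal as the height (authors' caller units). Only summits named in the text are drawn. Others within the range of the axis, such as those 2106 bp from nhr-241 and 2455 bp from nhr-102, are left out. The shaded band spans 500 bp on either side; nhr-47 at 248.75, nhr-25 and nhr-236 stand inside it (red), while the other 7 summits (grey) lie outside.

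Several joint summits lay beyond the limit, and the bound count depends on it: a limit of 1000 bp gave 6 members, adding nhr-255, nhr-142 and nhr-141, and one of 250 bp gave 2, without nhr-236. The closest were at nhr-255, at -539 bp with a signal of 105.69, and at nhr-142, at -546 bp with a signal of 187.53. At nhr-255 the ranked signals were 45.8 in replicate 1 and 57.73 in replicate 2, and neither replicate's own list held the peak. The nhr-142 summit was at -131 bp from the 5' end of F44E7.9, so it lay closer to that neighbour. Its signals were 115.58 in replicate 1 and 81.31 in replicate 2, and both replicates' own lists held it. A summit with a signal of 148.09 lay at -952 bp from nhr-141, also in both replicates' own lists, at 77.83 in replicate 1 and 68.18 in replicate 2. No protein-coding gene began within 500 bp of it. At nhr-8, a receptor linked to sterol balance and responses to foreign compounds, the summit lay at -1105 bp with a signal of 110.24. Its ranked signals were 46.29 in replicate 1 and 59.89 in replicate 2, and only replicate 2's own list held the peak. That peak had the 5' ends of 3 other genes within 500 bp, emc-6 at -142 bp, mrps-24 at -167 bp and mrpl-1 at -177 bp, the last ones encoding mitochondrial ribosomal proteins. The next nearest unbound member was nhr-19, whose summit lay inside the gene. The median distance from a member's 5' end to the nearest joint summit was 62230 bp, beside 26657 bp over all protein-coding genes.

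Most members lie on chromosome V, so their shares were compared with those of genes on the same chromosomes. Of the 269 members 167 (62.1%) were on V, beside 25% of all protein-coding genes, and 107 of these 167 were next to another member in the order of 5' ends. On V 1 of 167 members was bound (0.599%, 0.106 to 3.31%), beside 4.27% of all V genes (213 of 4994, 3.74 to 4.86%). Off V 2 of 102 members were bound (1.96%, 0.539 to 6.87%), beside 6.67% of the 14979 genes off V (6.28 to 7.08%). Both receptor shares were below the share of all genes on the same chromosomes. The interval on V did not reach the share of V genes, and that off V did. These intervals treat each member as independent, and many members on V lie side by side, so they may be too narrow. Between V and the other chromosomes the receptor intervals overlapped widely, and 1 against 2 bound genes cannot show a difference.

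Within V 78, 41 and 48 members lay in the left, middle and right of 3 equal parts of the chromosome. All protein-coding genes there numbered 1554, 1798 and 1642, so members were most frequent among genes of the left part. The bound member, nhr-47, was in the left part (1 of 78, 1.28%), where 3.35% of all genes were bound. In the middle part, where 6.4% of all genes were bound, 0 of 41 members were, which allows a share of up to 7.32%. In the right part 0 of 48 were bound, which allows up to 6.25%, beside 2.8% of all genes. Had each member been bound at the share of all protein-coding genes in its own part of its chromosome, 12.8 of the 269 would have been bound, and at the overall share 16.3. The count was 3.

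Receptor genes also stood further from other genes' 5' ends. Of the members 247 of 269 (91.8%) had no other protein-coding 5' end within 1000 bp, beside 76.5% of all genes. Among these isolated genes 2 of 247 members were bound (0.81%, 0.222 to 2.9%), beside 3.36% of all isolated genes. Among genes with a neighbouring 5' end within 1000 bp 1 of 22 members was bound (4.55%, 0.807 to 21.8%), beside 14.9% of all such genes. At the shares of genes with the same spacing 11.6 members would have been bound. The part of position and spacing in the count was not tested.

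**Figure D2:**
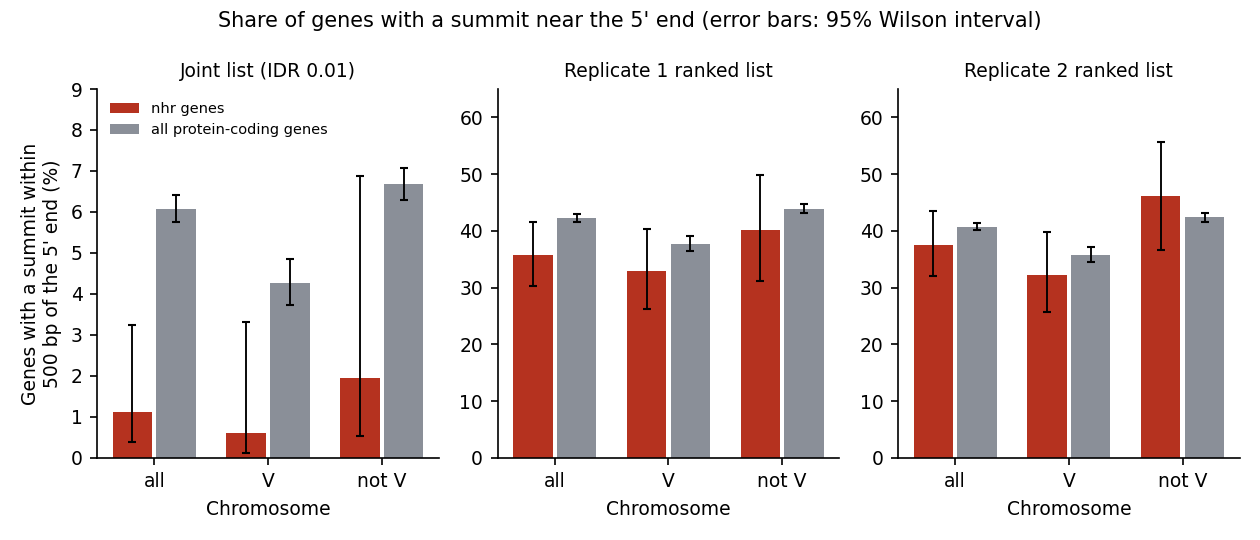
Bars give the percent of genes with a summit within 500 bp of the 5' end in the joint list and in each replicate's ranked list, for nhr genes (red) and all protein-coding genes (grey), over all chromosomes, on V and off V; error bars are 95% Wilson intervals. In the joint list the nhr bars stand at 1.12%, 0.599% and 1.96%, below 6.07%, 4.27% and 6.67% for all protein-coding genes. Over all chromosomes the ranked-list nhr bar stands at 35.7% in replicate 1, beside 42.3% for all genes, and at 37.5% in replicate 2, beside 40.7%.

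Summits inside genes were few in receptor genes, as they were in all protein-coding genes. A gene-body summit was one inside the gene and over 500 bp from each annotated transcript 5' end of that gene. The joint list had one in 2 of 269 receptor genes (0.743%, 0.204 to 2.67%), nhr-19 and nhr-66, beside 1.42% of all protein-coding genes (1.27 to 1.6%). The receptor interval included that share. On V 0 of 167 members had one, which allows up to 1.8%, beside 0.861% of all V genes, so a lower share was not detectable there. Per length, members had 0.0112 joint summits per kb within 500 bp of the 5' end and 0.00253 per kb in the gene body. All protein-coding genes had 0.064 per kb near the 5' end and 0.00629 per kb in the body. Promoters thus held more summits per kb than bodies over all protein-coding genes. The members' rates had the same order but rested on 3 summits near 5' ends and 2 in bodies, too few to set apart. Body length was gene length less 500 bp, also for genes with several 5' ends, which makes the body rates of such genes low. The second series-level list also had 2 such members, beside 1.35% of all genes. In the replicates' own lists there were 0 of 269 in replicate 1, which allows up to 1.12%, beside 0.651%, and 1 of 269 in replicate 2 (0.372%), beside 0.761%.

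The gene-body sites were single peaks in introns. At nhr-66, a receptor that works with NHR-49 in lipid metabolism, the summit at 8233592 on chromosome IV was 3010 bp into the gene and 1754 bp from the nearest of its 7 transcript 5' ends. Its joint signal was 103.13, with ranked signals of 45.11 in replicate 1 and 49.49 in replicate 2. At nhr-19 the summit at 9603675 on chromosome II was 1851 bp into the gene, with a joint signal of 118.75 and ranked signals of 44.46 in replicate 1 and 76.17 in replicate 2. Only replicate 2's own list kept the nhr-19 peak at the threshold, and neither replicate's list kept the one at nhr-66. At nhr-41, the counterpart of the vertebrate testicular receptors, a summit 1902 bp from the gene's 5' end lay in a coding exon and 20 bp downstream of the 5' end of another annotated transcript. Its joint signal was 100.1, with 50.51 in replicate 1 and 49.34 in replicate 2. When the 5' ends of all transcripts were used, nhr-41 was bound, which made 4 members, beside 6.35% of all genes.

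Weak peaks were examined next, since the ranked lists keep many sites below the threshold. In the ranked list of both replicates 144 of 269 members had one (53.5%, 47.6 to 59.4%), beside 55.6% of all protein-coding genes (54.9 to 56.3%). In replicate 1 the share was 35.7% of members (30.2 to 41.6%), beside 42.3% of all genes. In replicate 2 it was 37.5% (32 to 43.5%), beside 40.7%. The receptor interval lay below the share of all genes in replicate 1 and included it in replicate 2 and in the ranked list of both. These shares count strong peaks too. Without the genes bound in the matching thresholded list they were 53% of members and 52.7% of all genes in the list of both, 35.4% (30 to 41.3%) and 39.9% in replicate 1, and 37.1% (31.5 to 43%) and 38% in replicate 2. The receptor interval then included the share of all genes in each list. Inside genes the ranked list of both replicates had a summit in 68.4% of members (62.6 to 73.7%), beside 57.6% of all genes, and members were longer, with a median of 2309 bp, beside 2027 bp. Per length it had 0.681 gene-body summits per kb in members and 0.68 in all genes. In the replicates' own ranked lists 50.9% of members and 47.5% of all genes had one in replicate 1, and 44.2% and 45.5% in replicate 2. Per kb these lists had 0.378 in members and 0.409 in all genes in replicate 1, and 0.308 and 0.344 in replicate 2. Members thus had gene-body summits more often per gene in the list of both replicates, and about as often per kb. In each replicate's own ranked list they had fewer per kb over all chromosomes. On V the values were 0.321 in members and 0.396 in all V genes in replicate 1, and 0.258 and 0.341 in replicate 2. Off V they were 0.418 and 0.412 in replicate 1, and 0.345 and 0.344 in replicate 2, so the lower values were those on V.

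**Figure D3:**
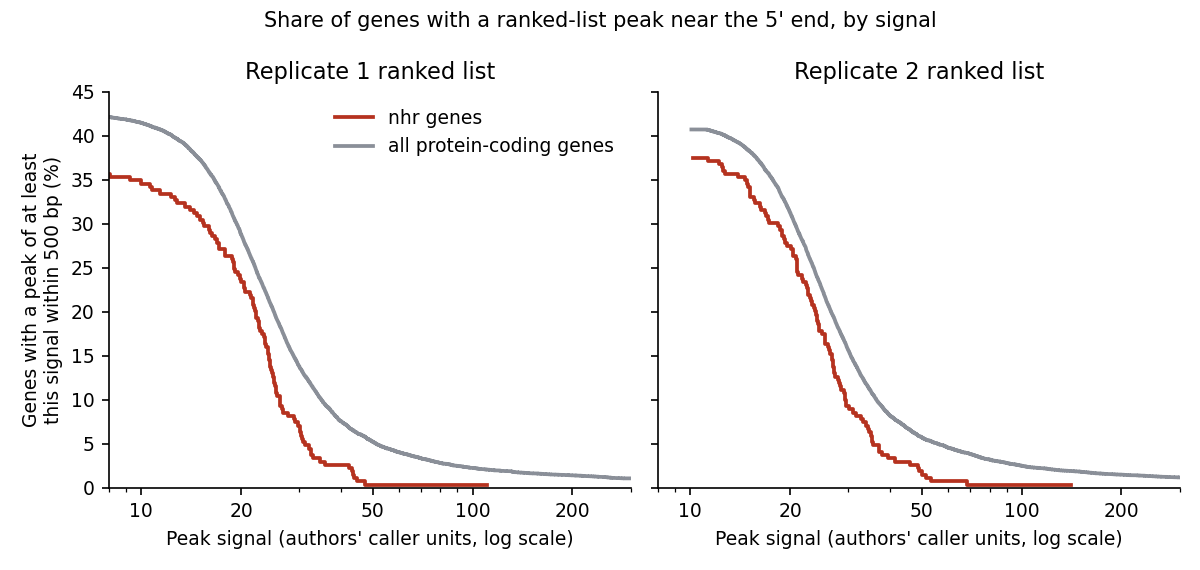
For each replicate's ranked list, the curves give the percent of nhr genes (red) and of all protein-coding genes (grey) with a peak of at least the signal on the x axis (authors' caller units, log scale) within 500 bp of the 5' end. The curves begin near each other, at 35.7% and 42.3% in replicate 1 and 37.5% and 40.7% in replicate 2, and the nhr curve ends at nhr-47, with 110.46 in replicate 1 and 140.85 in replicate 2.

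The heights of the ranked peaks were compared next. In the ranked list of both replicates the median of the highest signal per gene was 35.1 over members with a peak (quartiles 26.9 and 46.8) and 39.8 over all genes with a peak (29.6 and 55). Without genes bound in the joint list the medians were 34.5 over members and 37.6 over all genes. The strongest 10% of that list began at a signal of 55.1, and 7.81% of members (21 of 269) reached it, beside 13.9% of all genes. Without genes bound in the joint list these shares were 6.77% of members and 8.34% of all genes, so most of that gap came from genes already bound there. In replicate 1 the strongest 10% was reached by 2.97% of members, beside 10.1% of all genes, and in replicate 2 by 4.09%, beside 9.39%. Leaving out the genes of each replicate's own thresholded list, the shares were 2.61% of members and 6.31% of all genes in replicate 1, and 3.37% and 5.22% in replicate 2.

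The ranked lists were also divided by chromosome. The list of both replicates had a peak at 50.9% of members on V (43.4 to 58.4%), beside 51.6% of all V genes, and at 57.8% of members off V (48.1 to 67%), beside 56.9% of genes off V. In replicate 1 the shares were 32.9% of members on V (26.3 to 40.4%), beside 37.7%, and 40.2% of members off V (31.2 to 49.9%), beside 43.9%. In replicate 2 they were 32.3% on V (25.7 to 39.8%), beside 35.8%, and 46.1% off V (36.7 to 55.7%), beside 42.4%. The receptor intervals on V and off V overlapped in all 3 lists, and each included the share of all genes on the same chromosomes. The median highest signal over members with a peak was 32.5 on V (85 of 167 members) and 40.4 off V (59 of 102 members). Over all protein-coding genes it was 37.8 on V and 40.6 off V. In replicate 1 the medians were 22.6 over members and 23.1 over all genes on V, and 23.5 and 24.9 off V. In replicate 2 they were 22.6 over members and 24.8 over all genes on V, and 26.9 and 26.8 off V. Off V the medians of members and of all genes thus lay within 2 signal units in each list. In the strongest 10% of the ranked list of both replicates were 4.19% of members on V, beside 9.93% of V genes. Off V it held 13.7% of members, beside 15.2% of genes. Without genes bound in the joint list the shares were 3.61% of members on V, beside 5.96%, and 12% of members off V, beside 9.16%. These were 6 of 166 members on V and 12 of 100 off V. Without the genes of its own thresholded list, replicate 1 had 0.602% of members on V, beside 3.94%, and 5.88% off V, beside 7.11%. Replicate 2 had 1.81% on V, beside 3.78%, and 5.94% off V, beside 5.71%. Members were thus lower on V in all 3 lists, on few genes, while off V the lists differed in direction.

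The overlap of the replicates was counted over genes with any ranked peak near the 5' end, which need not be the same peak. A ranked peak near the 5' end was present in replicate 1 for 96 members and in replicate 2 for 101, and 45 members had one in both. This was 46.9% of the replicate 1 members (37.2 to 56.8%) and 44.6% of those in replicate 2 (35.2 to 54.3%). Over all protein-coding genes 5180 were in both, which was 61.3% of the 8452 in replicate 1 and 63.7% of the 8137 in replicate 2. Without genes bound in any thresholded list, the shared part was 44.6% (34.8 to 54.7%) of the members of replicate 1 and 54.6% of all its genes, and 42.3% (32.9 to 52.2%) of the members of replicate 2 and 57.1% of all its genes. The shares of members were lower, by a margin that in replicate 1 without those genes lay at the edge of the interval. Without those genes members on V shared 38.9% (27 to 52.2%) in replicate 1, beside 51.3% of V genes, and 39.6% (27.6 to 53.1%) in replicate 2, beside 54.3%. Off V they shared 52.6% (37.3 to 67.5%), beside 55.7%, and 45.5% (31.7 to 59.9%), beside 57.9%. Only the interval on V in replicate 2 lay below the share of all genes on the same chromosomes. Receptor medians were also lower in both lists, at 23 in replicate 1, beside 24.4 over all genes with a peak, and 24.2 in replicate 2, beside 26.4. Without the genes of each replicate's own thresholded list the medians were closer, at 22.8 beside 23.2 in replicate 1 and 24.2 beside 25 in replicate 2. The part of these levels in the smaller overlap was not tested.

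**Figure D4:**
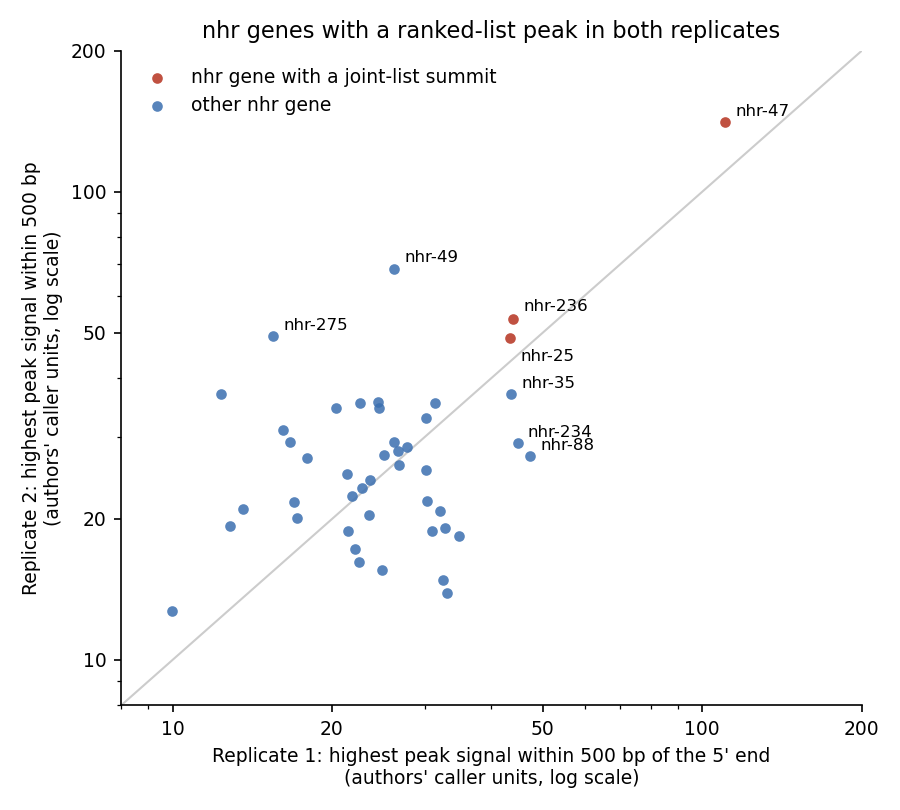
Each point is one of the 45 nhr genes with a ranked-list peak within 500 bp of the 5' end in both replicates, placed by its highest signal in replicate 1 (x) and replicate 2 (y), in the authors' caller units on log scales, with genes bound in the joint list in red and the rest in blue; the grey line marks equal values. Apart from nhr-47, at 110.46 and 140.85, the points form a cloud, with nhr-49 at 26.21 and 68.54 far above the line. The Spearman rank correlation over the 45 points was 0.142, beside 0.641 over all protein-coding genes with a peak in both replicates. Without genes bound in any thresholded list it was -0.0503 over 41 members, beside 0.241.

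Members differed in how their signal and their IDR score placed them. In order of the ranked signal over both replicates, nhr-47, nhr-25, nhr-49 (94.78), nhr-236, nhr-35 (89.65), nhr-217 (85.38) and nhr-1 (80.39) were highest, followed by nhr-88 (76.8), nhr-234 (71.91) and nhr-64 (67.56). In replicate 1 nhr-88 (47.36) and nhr-234 (44.8) followed nhr-47, then nhr-236, nhr-35 (43.63), nhr-25, nhr-64 (42.44), nhr-55 (35.91), nhr-42 (34.67) and nhr-95 (33.02). In replicate 2 nhr-49 (68.54) was second, then nhr-236, nhr-217 (51.37), nhr-1 (49.92), nhr-275 (49.09), nhr-25, nhr-154 (46.01), nhr-113 (41.43) and nhr-27 (39.56). Only nhr-47, nhr-236 and nhr-25 were among the highest 10 of both replicates. A score of 830 is an IDR of 0.01. In that list the unbound nhr-35 scored 762 and nhr-217 scored 621, while nhr-234 scored 310, nhr-88 scored 182, nhr-49 scored 166, nhr-1 scored 156 and nhr-64 scored 148. Only nhr-35 and nhr-217 among these were near the threshold. At an IDR of at most 0.05, 5 members had a site, the 3 bound ones with nhr-35 and nhr-217 (1.86%), beside 7.83% of all protein-coding genes.

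The receptor nhr-49, which controls fatty acid desaturation and breakdown, differed widely between the replicates. Its ranked peak on chromosome I had a signal of 26.21 at -414 bp in replicate 1 and 68.54 at -375 bp in replicate 2, and 94.78 at -364 bp over both. Replicate 2's own list kept it at the threshold, the joint list did not, and the second series-level thresholded list, of 1700 peaks, did. The signal over both was thus as high as at nhr-25 and nhr-236, and the replicates differed in how strongly they showed it. Another member bound there, nhr-217, had a signal of 51.37 in replicate 2 and no ranked peak within 500 bp in replicate 1. That second list bound 5 of 269 members (1.86%), beside 6.01% of all genes. On V it bound 1 of 167 (0.599%), beside 4.12% of V genes, and off V 4 of 102 (3.92%), beside 6.64%.

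Receptors with known roles are given by list, with counts too small to set apart from the 6.07% of all protein-coding genes. The conserved receptors nhr-6, nhr-8, nhr-23, nhr-25, nhr-41, nhr-48, nhr-64, nhr-67, nhr-69, nhr-85 and nhr-91 had 1 of 11 bound, nhr-25 (9.09%, 1.62 to 37.7%). In the ranked list of both replicates 8 of the 11 had a peak, with a median signal of 42.6, beside 39.8 over all genes with a peak. The highest after nhr-25 were the HNF4-like nhr-64 (67.56), nhr-48 (59.6) and nhr-8 (47.81, at 26 bp). For nhr-64 the signal came from replicate 1, at 42.44, with no peak within 500 bp in replicate 2. The receptors of moulting and larval timing, nhr-23, nhr-25, nhr-67 and nhr-85, had 1 of 4 bound, again nhr-25 (25%, 4.56 to 69.9%). Among these nhr-23, the ROR-like receptor, had 26.09 over both and 17.14 in replicate 1, with no peak in replicate 2. The tailless-like nhr-67 had no ranked peak near its 5' end in any of these lists, and nhr-85 had one, of 37.41, in the ranked list of both only.

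None of 9 metabolic receptors, nhr-8, nhr-10, nhr-13, nhr-49, nhr-62, nhr-66, nhr-68, nhr-80 and nhr-114, was bound in the joint list, which allows a share of up to 33.3%. A ranked peak over both replicates was present at 7 of the 9, with a median signal of 45.1. After nhr-49 the highest were nhr-80 (48.68), a partner of NHR-49 in fat desaturation, nhr-8 and the dietary restriction receptor nhr-62 (45.11). For nhr-80 replicate 1 had 25.16 and replicate 2 had no peak, while nhr-62 had 12.34 in replicate 1 and 36.99 in replicate 2. The propionate shunt regulator nhr-68 had 9.8 over both and no peak in either replicate's list.

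Genes around the family were counted in the same way, again beside 6.07% of all genes. None of the nuclear receptor genes daf-12, unc-55, odr-7, sex-1 and fax-1 had a joint summit within 500 bp, which allows a share of up to 60%, and the nearest was 7943 bp from sex-1. The highest ranked signal over both replicates among these was 62.63 at fax-1, at -95 bp, with 37.81 in replicate 1 and 21.93 in replicate 2. At daf-12, the receptor of the dafachronic acids that govern dauer entry, it was 26.78, with 18.41 in replicate 1 and 21.08 in replicate 2. Genes that make receptor ligands, daf-9, daf-36, hsd-1, dhs-16, emb-8 and strm-1, had 0 of 6 bound, which allows up to 50%. The cofactor genes mdt-15, din-1 and cbp-1 had 0 of 3 bound, with joint summits at -729 bp from din-1 and -826 bp from cbp-1. Of 10 genes controlled by metabolic receptors 2 were bound (20%, 5.67 to 51%), hach-1 and alh-8. Both belong to the propionate shunt, as do the unbound acdh-1, hphd-1 and ech-6. At hach-1 the joint signal was 128.09, with ranked signals of 49.6 in replicate 1 and 72.71 in replicate 2. Its summit lay at -306 bp, and the 5' end of nmad-1 was 516 bp from that of hach-1. At alh-8 the joint signal was 90.93, with ranked signals of 41.23 in replicate 1 and 53.04 in replicate 2. Of the replicates' own thresholded lists, only that of replicate 2 kept the hach-1 site, and neither kept the one at alh-8. The desaturase genes fat-5, fat-6 and fat-7, and acs-2 and fmo-2 were not bound either.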

How the data were processed

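Transcription factor ChIP-seq peak lists came from 1 group of whole young adult worms with 2 biological replicates, numbered by the labels. Alignments of the replicates and of a control, on ce11, went into the lists, per the deposited descriptions. For the aligner and caller, nothing is given in the sources used here. Of 8 deposited lists, 4 cover the whole series and 2 belong to each replicate. The peaks carry a deposited signal on a scale that is not stated. It also has a deposited scaled IDR score, capped at 1000, of which at least 830 corresponds to an IDR of 0.01 and at least 540 to 0.05. The ranked list matched to the joint list was the one that holds every joint peak. In the series' ranked lists, 8 unnamed columns per replicate were not used.

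Genes came from Ensembl release 115, and sequences from RefSeq's WBcel235, in which 99.89% of the annotated start codons read ATG. Summits were the peak start plus the deposited offset. For each gene the highest signal within 500 bp of the 5' end was kept, in Python 3.11.15 with pandas 2.3.3 and scipy 1.17.1. Shares carry Wilson intervals, a share of 0 the limit of 3 counts of the total. No enrichment test was run. The members and gene lists were chosen with earlier results of these data known. Named were all bound members, the 5 nearest unbound ones, those with gene-body summits, the highest 10 in each ranked list and the role lists. The window search was tested on simulated data and found all planted sites. Alternatives were windows of 250 and 1000 bp, other peak lists, peaks above the median signal, single replicates, all transcript 5' ends, the nearest gene, peak overlap and isolated genes. An IDR of at most 0.05 and a signal limit were added after seeing the data.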

Additional observations from a re-analysis of the deposited data

How the results depend on the processing

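The count of 3 bound members became 6 with a window of 1000 bp, 5 with the second series-level list, 5 with any overlap of the peak with the window, 5 at an IDR of at most 0.05 and 1 among the joint peaks above the median signal. With a replicate left out it ranged from 1 to 2. Under each of these the share of members stayed below that of all protein-coding genes. On chromosome V the count of 1 became 3 with 1000 bp and 2 with any overlap, and it was 1 in both lists of single replicates. The site at nhr-47 was bound under every alternative run. The sites at nhr-25 and nhr-236 were lost in each replicate's own list and among the peaks above the median signal, and nhr-236 also with 250 bp. The count of 2 members with a gene-body summit became 0 above the median signal and ranged from 0 to 1 with a replicate left out. The share of members with a ranked peak, 53.5%, was 36.8% with 250 bp, 71% with 1000 bp and 34.6% for peaks above the median signal of the list, where 37.3%, 72.5% and 40.3% of all genes had one. With a replicate left out it ranged from 35.7 to 37.5%. At a signal of at least that of the weakest bound member it was 1.49%, beside 5.55% of all genes. With so few bound members, 1 summit moves each count, and the unknown depth limits what weak peaks can show.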

Other observations

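Other families of transcription factors, taken by symbol after the data had been seen, are given as values beside the 1.12% of nuclear hormone receptor genes bound in the joint list. Of 63 homeobox genes with ceh- symbols 2 were bound (3.17%, 0.875 to 10.9%). Of 25 helix-loop-helix genes with hlh- symbols 2 were bound (8%, 2.22 to 25%), and of 25 zinc finger factor genes with ztf- symbols 1 was (4%, 0.71 to 19.5%). These intervals overlap that of the receptors (0.38 to 3.23%), and the differences were not tested.

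On the X chromosome, which has few joint peaks, 1 of 23 receptor genes was bound (4.35%, 0.772 to 21%), beside 1.98% of all protein-coding genes there.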
